A study of Mus musculus with 5 samples.

Results

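The 32 genes described here were chosen by function: the glucose transporters and enzymes that carry glucose to pyruvate and lactate, and genes known to respond to low oxygen. No cut on measured values set the list, but earlier results of these data were known when it was chosen. The brightest probe set over the 5 arrays then stood for each gene. Of the 32 genes, 30 had at least 1 probe set with that single gene symbol, 29 of them an ordinary probe set rather than a control, and 26 were bright enough to be tested, out of 18193 genes named and 11063 tested. Slc16a3, P4ha2 and Adm were too dim, Gapdh was read only by control probe sets, and no probe set was named Gpi1 or Eno1 here.

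The samples were 5 one-colour Affymetrix arrays of mouse forebrain RNA at embryonic stage E15.5. The source was the rostral medial ganglionic eminence (MGE), the ventral forebrain zone where many cortical interneurons are born, taken as the ventricular and subventricular layers that hold its dividing progenitors. There was 1 array of primary neuronal culture from Dlx1/2 mutant embryos and 1 of culture from wild-type (WT) embryos. Uncultured tissue gave 2 arrays of Dlx1/2 mutant and 1 of WT. Titles give -/- for the mutant arrays, +/ for WT tissue and no genotype for WT culture. The sample descriptions call the latter pair WT. Dlx1 and Dlx2 are homeobox transcription factors of these progenitors. The labels name no agent for any group. The labels give neither the strain nor the mutant allele, the number of embryos behind an array, the days in culture, or the medium, glucose and oxygen of the cultures, and the relation between the 2 samples of mutant tissue (separate litters, embryos or 1 pool) is unstated, so p-values may measure technical spread only.

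Glycolysis begins with glucose entry through the Slc2a transporters and its trapping by hexokinase, passes through the phosphofructokinase step, and ends with pyruvate, which either enters mitochondria or is made into lactate and exported. The hypoxia-inducible factor HIF raises the transcription of many of these enzymes. With oxygen present, the Egln prolyl hydroxylases mark the HIF alpha subunit for destruction; when oxygen is scarce the subunit persists, pairs with Arnt, and binds short sites whose core reads ACGTG or GCGTG. Dividing neural progenitors are known for high glycolysis, and differentiating neurons for a shift toward mitochondrial respiration.

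The 250 bases before the annotated start are printed for the members with the 2 largest rises (Egln3 and Slc16a1) and the 2 largest falls (Ankrd37 and Ddit4) in culture, to show the HIF core letters in genes that moved in opposite directions. Sequences are RefSeq's, from build GRCm38.p6, written 5′ to 3′ on the gene's strand, and capitals mark ACGTG or GCGTG on either strand.
Egln3, chr12:54203875-54204124, minus strand: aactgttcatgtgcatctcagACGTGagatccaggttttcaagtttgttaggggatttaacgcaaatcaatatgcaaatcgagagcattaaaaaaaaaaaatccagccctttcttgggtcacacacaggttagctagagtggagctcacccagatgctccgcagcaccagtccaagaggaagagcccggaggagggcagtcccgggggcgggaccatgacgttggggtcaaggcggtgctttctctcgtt
Slc16a1, chr3:104638414-104638663, plus strand: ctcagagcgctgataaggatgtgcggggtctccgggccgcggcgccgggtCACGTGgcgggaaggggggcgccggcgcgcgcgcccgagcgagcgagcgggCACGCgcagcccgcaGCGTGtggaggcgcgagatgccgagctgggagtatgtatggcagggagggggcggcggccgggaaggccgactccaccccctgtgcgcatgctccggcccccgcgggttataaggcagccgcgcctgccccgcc
Ankrd37, chr8:45999851-46000100, minus strand: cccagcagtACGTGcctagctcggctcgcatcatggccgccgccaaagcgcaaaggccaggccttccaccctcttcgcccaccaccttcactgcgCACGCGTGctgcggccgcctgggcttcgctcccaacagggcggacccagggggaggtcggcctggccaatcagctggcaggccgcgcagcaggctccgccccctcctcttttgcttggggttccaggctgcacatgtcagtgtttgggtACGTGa
Ddit4, chr10:59951771-59952020, minus strand: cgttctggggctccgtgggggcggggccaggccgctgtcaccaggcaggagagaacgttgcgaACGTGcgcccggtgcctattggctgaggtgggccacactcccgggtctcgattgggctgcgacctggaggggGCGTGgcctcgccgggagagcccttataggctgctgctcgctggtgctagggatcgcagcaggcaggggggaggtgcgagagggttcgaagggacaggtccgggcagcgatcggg
The Egln3 window held 1 ACGTG and no GCGTG. In Slc16a1 the 2 ACGTG matches were the same CACGTG read on both strands, beside 2 GCGTG matches. Ankrd37 had 2 ACGTG matches, 1 of them 6 bases before the start, and 2 GCGTG matches that overlap on opposite strands. Ddit4 had 1 of each core.

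A promoter window of the same 250 bases was available for 30 of the 32 members, and a gene with several annotated starts counted once if any of its windows held a core. At least 1 of the cores stood in 27 of these 30 members (90.0%), against 11226 of all 27025 genes with a window (41.5%). ACGTG was in 19 members (63.3%), against 18.5% of all genes, and GCGTG in 20 members (66.7%), against 30.9%. Among members higher in culture, 9 of the 10 with a window held a core, among those lower 7 of 7, and among those not called 6 of 7. Nearly all members held a core whatever their direction, so these counts cannot tell whether the letters go with a direction. Many members were chosen as known responders to low oxygen, so their share is not an independent result. A match is a string of letters in a window and not a measured binding site.

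Values below are log2 signals after quantile normalization, in which signals under 5.15 were raised to that floor (2.36 on the log2 scale). A gene was read by its brightest probe set and was tested when its mean over the 5 arrays exceeded 4.80. Probe sets differ in brightness for technical reasons, so levels are compared between arrays and never between genes. The members were brighter than the rest, with a median 5-array level of 8.54 against 7.56 over all tested genes. Dlx1 had deposited signals of 1.26 in mutant culture and 603 in WT culture, and of 2.80 and 0.921 in mutant tissue against 3278 in WT tissue, so every mutant array was low for it. Arrays correlated at 0.985 between the 2 mutant tissue samples, at 0.971 between the 2 cultures and at 0.875 to 0.892 between culture and tissue.

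**Figure D1:**
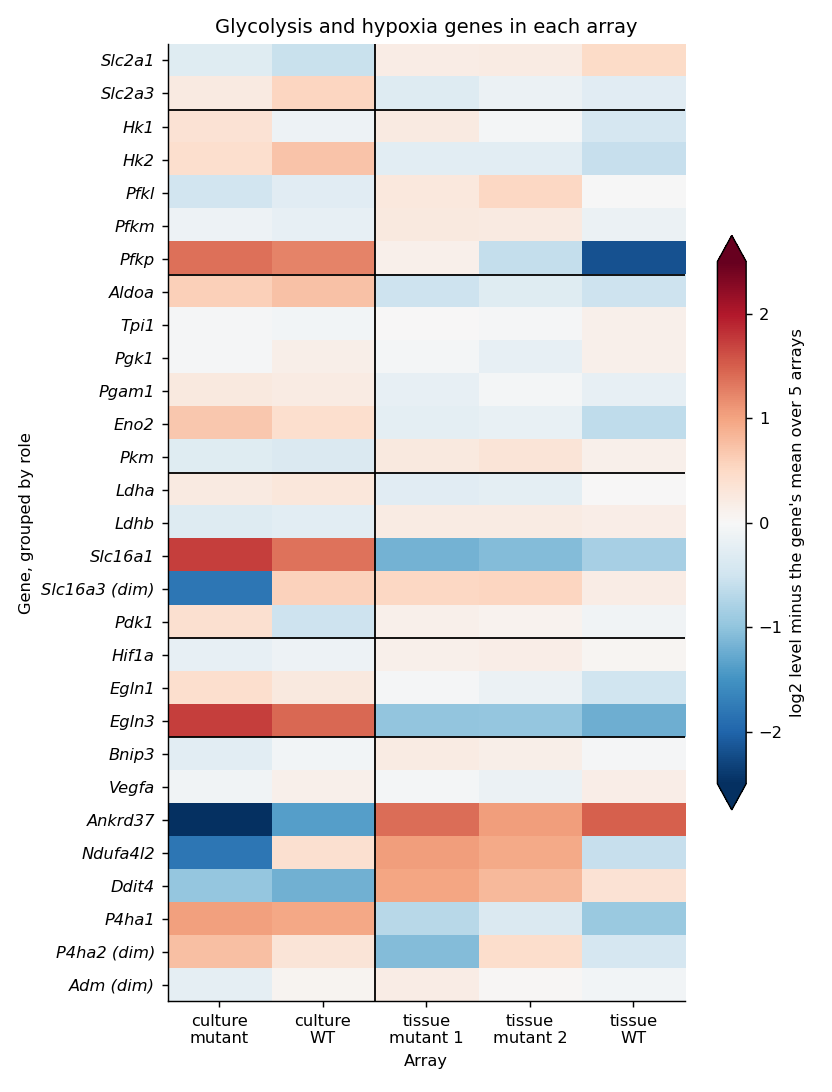
Each row is a member with a named probe set, and each column 1 array, ordered as mutant culture, WT culture, the 2 mutant tissue arrays and WT tissue. Colour gives the log2 level minus that gene's 5-array mean, with the scale ending at 2.5 on either side, and dim marks genes under the filter; Egln3 and Slc16a1 were high in both cultures and Ankrd37 and Ddit4 in all 3 tissue arrays.

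Culture against tissue, with genotype in the model, gave larger differences among the members than genotype did. Of the 26 tested, 11 were higher and 7 lower in culture and 8 were not called (69.2% called), where 38.8% of all tested genes were called, 19.6% higher and 19.2% lower. At an unadjusted p under 0.05 the count was also 18 of 26, against 47.7% of all tested genes. The median size of the difference was 0.61 among the members and 0.39 among all tested genes on the log2 scale, while the signed median was 0.03. Each of the 18 calls had the same sign in the mutant and in the WT samples. The fit averages the genotypes and counts their disagreement as spread, so being called already favours such agreement. Without mutant tissue replicate 1, 7 members were higher, since Slc2a3, Pgam1, Eno2 and Ldha lost their calls. Pfkp and Ankrd37 passed the brightness filter on the strength of 1 preparation only, so a difference was needed for them to be tested. Culture differs from tissue in dissociation, survival and medium together, and these cannot be told apart in this design. In such bulk samples, fewer cells of a type and less RNA per cell cannot be told apart.

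**Figure D2:**
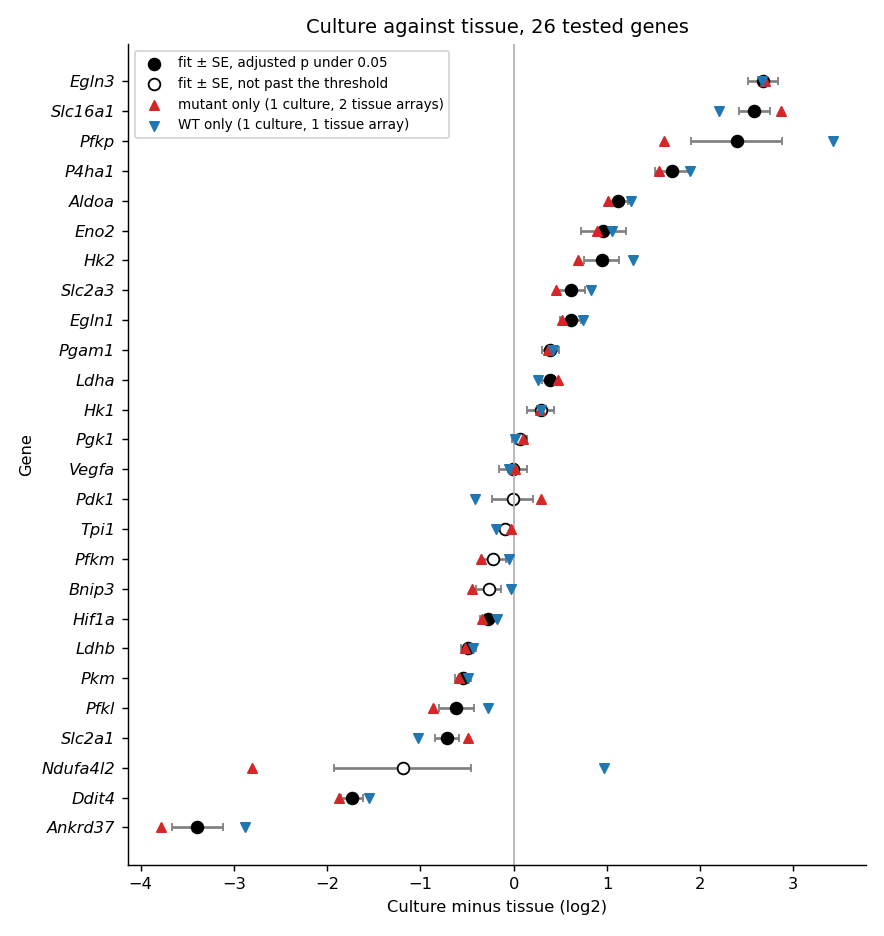
Each tested member's culture-minus-tissue difference on the log2 scale, with the fitted value and its standard error as a bar and the differences within the mutant and within the WT samples as separate points. Egln3, Slc16a1 and Pfkp lie farthest to the right and Ankrd37 and Ddit4 farthest to the left, while the 2 genotypes of Ndufa4l2 lie on opposite sides of 0.

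The glucose transporters moved in opposite directions. Slc2a1, the transporter of blood vessels, glia and progenitors, read 9.69 in mutant and 9.44 in WT culture, against 10.17 and 10.19 in mutant tissue and 10.46 in WT tissue. It fell in culture by 0.72 ± 0.13 (fitted SE; adjusted p = 0.0041), and its 3 probe sets gave differences of -0.93 to -0.76. Slc2a3, the high-affinity transporter of neurons, read 8.26 in mutant and 8.58 in WT culture, against 7.72 and 7.88 in mutant tissue and 7.75 in WT tissue. It rose by 0.61 ± 0.15 (adjusted p = 0.015), but its dimmer probe sets were split, with differences of -0.87, 0.24 and 0.84, and the mean over its probe sets was not called (adjusted p = 0.5). In both genes the culture arrays lay wholly outside the tissue arrays.

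Of the 5 tested genes of the hexose steps, 2 rose, 1 fell and 2 were not called. Hk2, the inducible hexokinase that sits on mitochondria, read 7.63 in mutant and 7.92 in WT culture, against 6.95 and 6.94 in mutant tissue and 6.64 in WT tissue. It rose by 0.94 ± 0.19, or 1.92-fold (adjusted p = 0.0059). Pfkp, the platelet-type phosphofructokinase subunit, read 6.52 in mutant and 6.38 in WT culture, against 5.27 and 4.55 in mutant tissue and 2.96 in WT tissue. The 3 tissue arrays were farther apart than the nearest of them was from culture, and the rise was 2.39 ± 0.48 (adjusted p = 0.0062). The dimmer Pfkp probe sets gave -0.08 and 0.35, so the rise rests on its brightest probe set alone. Pfkl, the liver-type subunit, read 7.17 in mutant and 7.36 in WT culture, against 7.91 and 8.16 in mutant tissue and 7.64 in WT tissue. It fell by 0.62 ± 0.18 (adjusted p = 0.031), and the call was lost without either mutant tissue array (adjusted p = 0.083 and 0.12). Hk1, the constitutive brain hexokinase, and Pfkm, the muscle-type subunit, differed by 0.29 and -0.22 and were not called.

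From triose to pyruvate, 3 of 6 tested genes rose, 1 fell and 2 were not called. Aldoa, the aldolase that splits the hexose, read 11.08 in mutant and 11.21 in WT culture, against 9.97 and 10.17 in mutant tissue and 9.95 in WT tissue. All 5 of its probe sets were higher in culture, by 0.90 to 1.21, and the fitted rise was 2.17-fold (1.12 ± 0.11, adjusted p = 0.00019). Eno2, the neuronal enolase, read 6.56 in mutant and 6.31 in WT culture, against 5.64 and 5.70 in mutant tissue and 5.25 in WT tissue, a rise of 0.96 ± 0.24 (adjusted p = 0.016). Pgam1, a phosphoglycerate mutase, rose by 0.39 ± 0.09 (adjusted p = 0.011). Pkm, the pyruvate kinase of the last step, read 10.31 in mutant and 10.25 in WT culture, against 10.86 and 10.94 in mutant tissue and 10.74 in WT tissue. It fell by 0.55 ± 0.09 (adjusted p = 0.0021), opposite to Aldoa, Pgam1 and Eno2. The enolase step before it was read by Eno2 only, as no probe set was named Eno1. Tpi1 (triose phosphate isomerase) and Pgk1 (phosphoglycerate kinase) differed by -0.10 and 0.06 and were not called. The dimmer probe sets gave -0.03 and -0.08 for Tpi1, and 0.29 and 0.50 for Pgk1. The main probe sets of Aldoa, Tpi1, Pgk1 and Slc2a3 carry the x or s suffix of designs that can also bind related transcripts. Gapdh's 5′ control probe set read 13.41 in mutant and 13.45 in WT culture, against 13.23 and 13.28 in mutant tissue and 13.23 in WT tissue, and it was not tested.

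The lactate genes gave 2 rises and 1 fall among 4 tested. Slc16a1, the monocarboxylate transporter that carries lactate and pyruvate across the membrane (probe set 1415802_at), read 10.36 in mutant and 9.99 in WT culture, against 7.45 and 7.54 in mutant tissue and 7.79 in WT tissue. It rose 5.98-fold (2.58 ± 0.17, adjusted p = 3.1e-05), and the cultures stood more than 2 log2 units above every tissue array. Ldha, the lactate dehydrogenase subunit favouring lactate formation, read 11.16 in mutant and 11.22 in WT culture, against 10.66 and 10.70 in mutant tissue and 10.96 in WT tissue. Ldhb, the subunit favouring lactate use, read 10.37 in mutant and 10.42 in WT culture, against 10.89 and 10.89 in mutant tissue and 10.86 in WT tissue. Ldha rose by 0.39 ± 0.09 (adjusted p = 0.01) and Ldhb fell by 0.49 ± 0.08 (adjusted p = 0.0029), with all 4 Ldhb probe sets lower, with differences of -0.59 to -0.48. Pdk1, the kinase that shuts pyruvate dehydrogenase, was not called (-0.01 ± 0.22, adjusted p = 0.97). Its dimmer probe sets gave 0.11, -0.61 and -0.45, the last of them under the filter.

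The oxygen-sensing genes were all called. Egln3, a prolyl hydroxylase that is itself a HIF target (probe set 1418649_at), read 8.81 in mutant and 8.53 in WT culture, against 6.11 and 6.12 in mutant tissue and 5.87 in WT tissue. It had the largest rise of the tested members, 6.39-fold (2.68 ± 0.16, adjusted p = 2.5e-05), and its dimmer probe set was higher in culture too. Egln1, the main oxygen-sensing hydroxylase, read 9.80 in mutant and 9.62 in WT culture, against 9.34 and 9.22 in mutant tissue and 8.88 in WT tissue. It rose by 0.61 ± 0.11 (adjusted p = 0.0045), with 0.15 on its dimmer probe set. Hif1a, the HIF alpha subunit, whose activity is set largely at the protein, read 10.41 in mutant and 10.47 in WT culture, against 10.73 and 10.77 in mutant tissue and 10.65 in WT tissue. It fell by 0.27 ± 0.09 (adjusted p = 0.041), and 6 of 8 alternative settings lost that call.

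The other hypoxia targets did not move as a block, with 1 rise, 2 falls and 3 not called among 6 tested. P4ha1, the catalytic subunit of collagen prolyl hydroxylase, read 8.12 in mutant and 8.05 in WT culture, against 6.39 and 6.73 in mutant tissue and 6.16 in WT tissue. It rose 3.25-fold (1.70 ± 0.19, adjusted p = 0.00038), and its dimmer probe set gave 1.39. Ankrd37, an ankyrin-repeat protein used as a HIF target (probe set 1436538_at), read 3.69 in mutant and 4.87 in WT culture, against 7.64 and 7.30 in mutant tissue and 7.75 in WT tissue. Its fitted difference was -3.39 ± 0.27 (adjusted p = 8.6e-05). The mean culture level of 4.28 was under the filter, so the size of this fall is uncertain. Ddit4, a stress-induced inhibitor of mTOR signalling (probe set 1428306_at), read 8.92 in mutant and 8.70 in WT culture, against 10.88 and 10.71 in mutant tissue and 10.24 in WT tissue. It fell by 1.74 ± 0.12, or 3.33-fold (adjusted p = 4.1e-05). P4ha1 and Ddit4, both known hypoxia targets, thus moved in opposite directions. Vegfa, the vascular growth factor, differed by -0.01 ± 0.15, and Bnip3, a mitophagy receptor, by -0.27 ± 0.13, and neither was called. The dimmer Vegfa probe set gave -0.49. The call held under each of the 8 alternatives for 8 members, namely Aldoa, Slc16a1, Egln3 and P4ha1 (higher) and Pkm, Ldhb, Ankrd37 and Ddit4 (lower).

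Markers of blood and vessels differed alongside these genes. The summed signal of 7 red blood cell markers was 40.8 in mutant and 49.2 in WT culture, against 9635 and 9538 in mutant tissue and 10735 in WT tissue; all 5 tested were lower in culture, and Hba-a1, Hbb-bh1, Hba-x and Alas2 were at the floor in both cultures. The 8 endothelial markers summed to 243 in mutant and 188 in WT culture, against 971 and 1069 in mutant tissue and 1131 in WT tissue, with Pecam1 at the floor in both cultures. Of the endothelial markers, 3 of 5 tested were lower. Of 7 proliferation markers none was called by limma, and 2 had an unadjusted p under 0.05. This fit averages the genotypes, and for all 7 the genotype difference itself differed between culture and tissue. Like levels within each genotype therefore do not follow. The other lists split: of those tested, neuron markers had 3 higher and 3 lower of 8, astrocyte and radial glia markers 4 higher and 2 lower of 8, oligodendrocyte lineage markers 3 lower of 5, microglia markers 1 higher and 2 lower of 7, pericyte and mesenchyme markers 1 of each of 4, choroid plexus markers 1 higher of 3 and MGE markers 1 higher and 5 lower of 7. These counts stand beside 38.8% of all tested genes called in this comparison, and several of the lists lay near that share. The part of these cell types in the members' differences was not tested.

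Mutant against WT in tissue was the comparison of genotype with a replicate on 1 side. It called 3 members higher and 1 lower of 26 (15.4%), where 15.3% of all tested genes were called, 8.59% higher and 6.7% lower, so the members' share was near the background. The median difference was 0.18 among the members, with 19 of 26 above 0, and 0.0010 over all tested genes; 10 members had an unadjusted p under 0.05, against 29% of all tested genes. All 4 calls were lost when the prior variance had no intensity trend, a setting that called 0 genes higher and 2 lower over all tested genes.

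Ndufa4l2, a HIF target that lowers mitochondrial complex I activity and also marks brain pericytes (probe set 1434905_at), read 6.30 and 6.19 in mutant tissue and 4.67 in WT tissue. Its 5-array mean of 5.25 passed the filter of 4.80 only with these high mutant tissue arrays, so a difference was needed for it to be tested. It rose 2.99-fold (1.58 ± 0.32, adjusted p = 0.0055), with the WT array under the filter. The summed pericyte and mesenchyme markers, of which none of 4 tested was called by limma and 1 had an unadjusted p under 0.05, were 737 and 784 in mutant tissue and 862 in WT tissue. Ddit4, at 10.88 and 10.71 in mutant tissue and 10.24 in WT tissue, rose 1.46-fold (0.55 ± 0.09, adjusted p = 0.0019). Egln1, at 9.34 and 9.22 in mutant tissue and 8.88 in WT tissue, rose 1.32-fold (0.40 ± 0.12, adjusted p = 0.035), but its other probe set gave -0.30. Ldha, at 10.66 and 10.70 in mutant tissue and 10.96 in WT tissue, fell by 0.27 ± 0.08 (adjusted p = 0.043).

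Several further members came just short of the threshold. Hk1 read 8.20 and 7.93 in mutant tissue and 7.56 in WT tissue (0.50 ± 0.17, adjusted p = 0.062). Pfkm read 8.69 and 8.67 in mutant tissue and 8.30 in WT tissue (0.38 ± 0.13, adjusted p = 0.062). Slc2a1 (-0.28 ± 0.09, adjusted p = 0.054) and Pgk1 (-0.25 ± 0.08, adjusted p = 0.064) lay below 0 and were not called. For all 5 hexose-step genes the fitted difference on the brightest probe set was above 0. None was called by limma, although 4 had an unadjusted p under 0.05. The dimmer Pfkl probe sets were split, with differences of 0.60 and -1.17. Pfkp, with 5.27 and 4.55 in mutant tissue and 2.96 in WT tissue, differed by 1.95 ± 0.62 (adjusted p = 0.054), while its next probe set gave -0.77.

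Markers of cell state also differed by genotype in tissue. Their counts stand beside the 15.3% of all tested genes called in this comparison. All 7 proliferation markers were lower in mutant tissue, with summed signals of 12287 and 12099 in mutant tissue and 18370 in WT tissue. Of the neuron markers, 6 of 8 were higher, with sums of 16974 and 17180 in mutant tissue and 13209 in WT tissue. Among astrocyte and radial glia markers 5 of 8 were higher, among oligodendrocyte lineage markers 4 of 5 and among choroid plexus markers 1 of 3, while 5 of 7 MGE markers and 2 of 5 red blood cell markers were lower and no endothelial or microglia marker was called (2 of 5 and 1 of 7 had an unadjusted p under 0.05). The 3′ minus 5′ log2 signal of the Gapdh controls, a measure of RNA integrity, was -0.47 and -0.52 in mutant tissue and -0.28 in WT tissue, and that of Actb was 0.45 and 0.39 in mutant tissue and 0.50 in WT tissue. The part of these differences in the members' values was not tested.

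**Figure D3:**
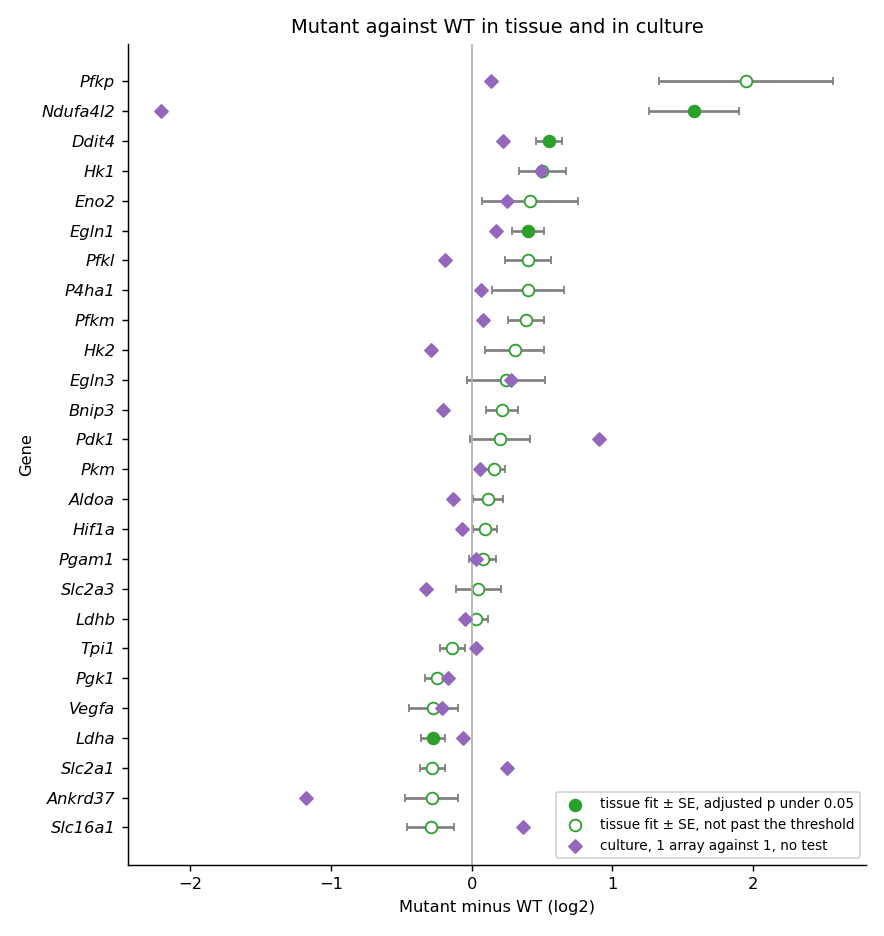
Each tested member's mutant-minus-WT difference on the log2 scale, with the fitted tissue value and its standard error, and the single difference between the 2 cultures. Ndufa4l2 lies at 1.58 in tissue and at -2.20 in culture, Pfkp lies at 1.95 in tissue, and all other members lie between -0.29 and 0.55 there.

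The 2 cultures, 1 array for each genotype, allow values but no test. At least a 2-fold difference was seen in 2 of 26 members (7.69%), both lower in mutant culture, where 3.68% of all tested genes passed that fold (1.85% higher and 1.83% lower). These were Ndufa4l2, at 3.43 in mutant and 5.64 in WT culture, and Ankrd37, at 3.69 in mutant and 4.87 in WT culture. In both genes the mutant culture lay under the filter, where the arrays separate signal from background poorly. Pdk1 read 7.16 in mutant and 6.25 in WT culture on its brightest probe set, a difference of 0.91, while its other probe sets gave 0.06, 0.39 and 0.00.

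Across both preparations the fit called no member (0 of 26), against 1.07% of all tested genes (0.814% higher and 0.253% lower), by limma's test; 7 members had an unadjusted p under 0.05, where 13% of all tested genes did. The smallest adjusted p-values were 0.19 for Ddit4 (0.41 ± 0.12) and 0.2 for Hk1 (0.50 ± 0.15). On its brightest probe set Hk1 was higher in the mutant in each preparation, by 0.49 in culture and by 0.50 in tissue, while its second probe set gave 0.70 in culture but -0.07 and 1.15 for the 2 mutant tissue arrays, on either side of WT tissue.

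The genotype difference itself differed between culture and tissue for 1 member of 26 (3.85%), against 4.48% of all tested genes (2.21% higher and 2.27% lower). It lay on the lower side. For Ndufa4l2, the difference in culture minus that in tissue was -3.78 ± 0.58 (adjusted p = 0.008). Slc2a1 (0.53 ± 0.14, adjusted p = 0.063) and Slc16a1 (0.66 ± 0.19, adjusted p = 0.089) did not pass. For Ndufa4l2 the genotypes lay in opposite order in the 2 preparations. The lower side of each was a single array under the filter, mutant culture at 3.43 and WT tissue at 4.67. The gene was tested only because its mutant tissue arrays were high, so its call is not independent of the filter. That call was lost without the brightness filter, without the intensity trend and with the mean of all probe sets (adjusted p = 0.2, 0.23 and 0.09). Ndufa4l2 has 1 probe set, so the last setting changed only the other genes in the fit. Proliferation markers were higher by this test in 7 of 7 and neuron markers lower in 5 of 8, and their part in the value was not tested.

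The 3 dim members carry levels near the limit of the arrays. Slc16a3, the lactate exporter of highly glycolytic cells, was at the floor (2.36) in mutant culture and read 4.75 in WT culture, with 4.68 and 4.71 in mutant tissue and 4.36 in WT tissue. That is a signal at least 5.21-fold lower in mutant culture, on a single array. P4ha2, a second collagen hydroxylase subunit, read 5.10 in mutant and 4.67 in WT culture, and 3.26 and 4.78 in mutant tissue against 3.92 in WT tissue. Adm, the vasodilator peptide adrenomedullin, read 4.55 in mutant and 4.83 in WT culture, and 4.95 and 4.80 in mutant tissue against 4.69 in WT tissue. A second Adm probe set was at the floor in mutant culture and read 5.67 in WT culture, and 5.07 and 5.04 in mutant tissue against 5.13 in WT tissue. The 2 mutant tissue arrays of P4ha2 lay on either side of WT tissue.

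**Figure D4:**
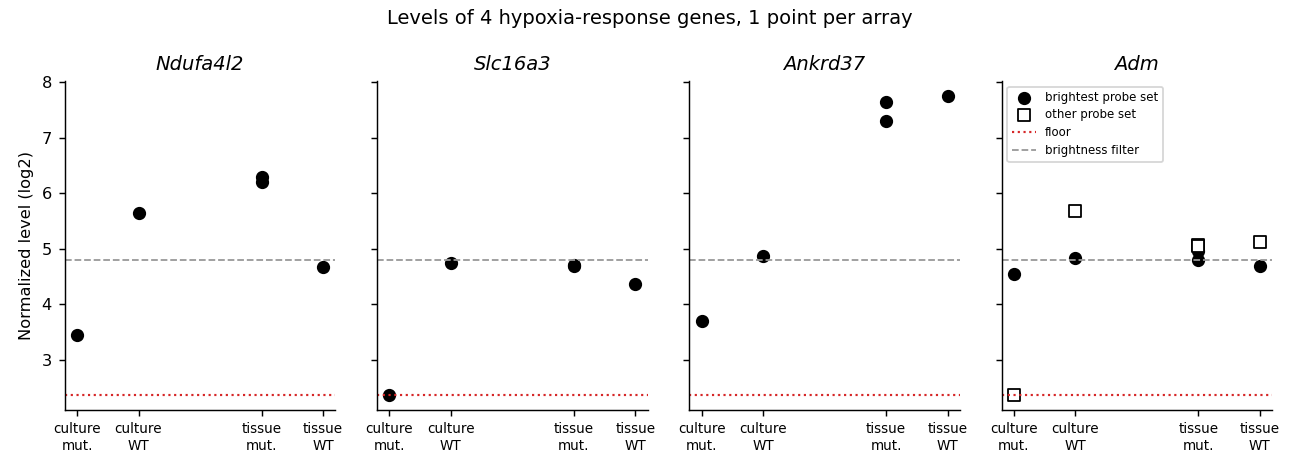
Normalized log2 levels of Ndufa4l2, Slc16a3, Ankrd37 and Adm, 1 point per array, with dashed and dotted lines at the brightness filter (4.80) and the floor (2.36), and open squares for the other probe set of Adm. Mutant culture is the lowest array in each panel, and Slc16a3 and the other Adm probe set are at the floor there. The panels are a choice of genes low in mutant culture and not all dim members. P4ha2, not shown, had its highest level in mutant culture (5.10, against 4.67 in WT culture).

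Beyond the members, lists of related genes were counted in the same fits. The lists overlap: Pfkfb3 counts in both the HIF pathway and the glycolysis list, and Aldoc in both the glycolysis list and the astrocyte markers. Of 27 other HIF pathway and hypoxia genes tested, 7 were higher and 6 lower in culture (48.1%, where 38.8% of all tested genes were called). The largest were Plod2, a collagen lysyl hydroxylase (2.38), Hif3a, a HIF alpha paralogue (-1.59), Hmox1, haem oxygenase (1.54), Mxi1, a Myc antagonist (-1.43), and Rbpj, the Notch effector (-1.41). Of 16 other glycolysis isoforms and regulators, 5 were higher and 2 lower (43.8%), led by the transporters Slc2a4 (1.27) and Slc2a8 (-1.07), the phosphoglucomutase Pgm1 (1.18), the kinase Pdk3 (1.03) and Aldoc, the astrocytic aldolase (-1.02). Of 20 genes of pyruvate entry and the TCA cycle, 10 were higher and none lower (50%), led by fumarase Fh1 (0.75), the mitochondrial pyruvate carrier subunit Mpc1 (0.70), Sucla2 (0.51), Pdp1 (0.51) and Suclg1 (0.46). This list's differences were small, and without either mutant tissue array in turn only 5 of its genes were called, as were 3 without the brightness filter, 3 without the intensity trend and 4 with the mean of all probe sets. Of 6 pentose phosphate genes, Pgls (0.37) and Tkt (0.21) were higher and Taldo1 (-0.32) lower, and without mutant tissue replicate 1 none was called.

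In tissue, the mutant had 4 of the 16 other glycolysis genes higher and 4 lower (50%, against 15.3% of all tested genes), led by Pdk2 (1.32), Slc2a4 (-1.18), Pfkfb3, which makes the activator of phosphofructokinase (1.10), Slc2a8 (-0.95) and Aldoc (0.88). Of 27 HIF pathway and hypoxia genes 4 were called (14.8%), a share near that of all tested genes. Pfkfb3, Nampt, the NAD salvage enzyme (0.77), and Cited2, a HIF competitor (0.42), were higher and Higd1a, a mitochondrial protein (-0.71), was lower. No TCA-cycle gene of 20 was called by limma's test (1 had an unadjusted p under 0.05), and 2 pentose phosphate genes, Rpia (-0.58) and Pgls (-0.54), were lower. Without the intensity trend these tissue counts were all 0, and the glycolysis list had 0 higher and 1 lower without the brightness filter and likewise with the mean of all probe sets. Aldoc was higher across both preparations (0.78, adjusted p = 0.046), a call lost without either mutant tissue array.

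**Figure D5:**
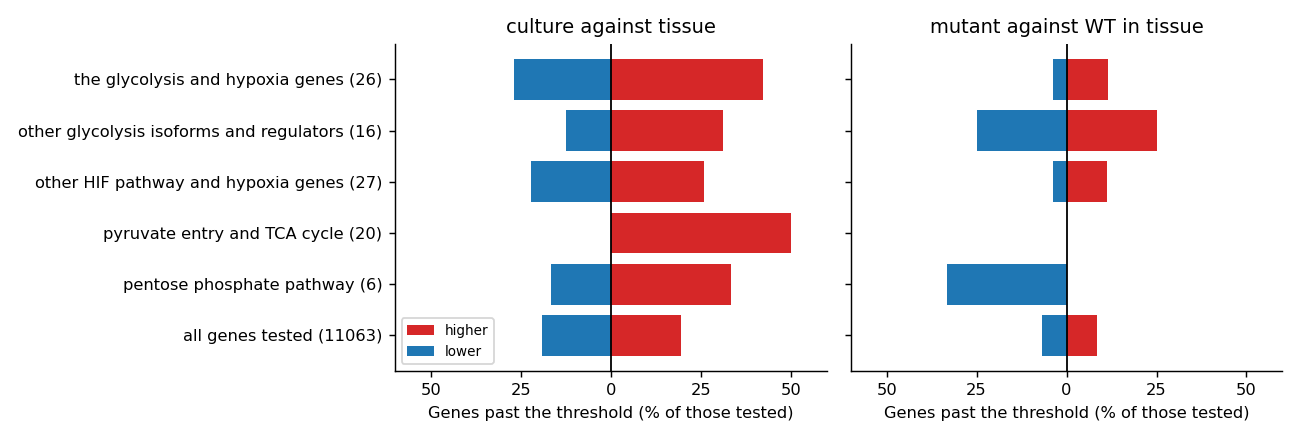
Share of tested genes called higher (right, red) or lower (left, blue) in each list, for culture against tissue and for mutant against WT in tissue, with the number tested in brackets and all 11063 tested genes in the bottom row. The pyruvate and TCA-cycle list has 10 of 20 genes on the higher side in culture and none in mutant tissue. Pfkfb3 counts in both the glycolysis and the HIF pathway list.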

How the data were processed

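RNA from 5 samples was measured on Affymetrix mouse arrays. The deposited values are linear intensity values per probe set, 45101 a sample, with the same trimmed mean of 150.001 in every array (2% trimmed at each end); the authors' algorithm and scaling are not given in the sources used here. Of the probe sets, 34958 had 1 gene symbol and 932 several, and only the first kind was used; 64 controls stayed out. Intensities were quantile normalized, floored at the pooled 20th percentile and put on the log2 scale. Genes were tested with limma 3.58.1 in R 4.3.3 (lmFit and eBayes with an intensity trend, Benjamini-Hochberg over 11063 genes, threshold 0.05), in 3 models: the 3 tissue arrays, genotype plus preparation, and 4 groups, with 1, 2 and 1 residual degrees of freedom and prior degrees of freedom of 10.9, 5.95 and 8.57. The precision is limited by the number of arrays. Every member is named; of the other lists, up to 5 genes past the threshold per list and test were named by size. The members, lists and tests were chosen with earlier results of these data known. One-array culture differences use a 2-fold threshold. Older symbols were matched through a synonym (Ero1l to Ero1a).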

Additional observations from a re-analysis of the deposited data

Results flagged for a closer look

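Ndufa4l2 had a genotype difference that was not the same in culture and in tissue: the difference in culture minus that in tissue was -3.78 on the log2 scale (adjusted p = 0.008), made of -2.20 in culture and 1.63 and 1.53 for the 2 mutant tissue arrays against WT tissue. Among the other hypoxia genes, Cited2 differed likewise by -1.48 (adjusted p = 0.00073), with 9.72 in mutant and 10.78 in WT culture, and 10.76 and 10.69 in mutant tissue against 10.30 in WT tissue. Higd1a differed by 0.57 (adjusted p = 0.041), with 11.04 in mutant and 11.17 in WT culture, and 9.64 and 9.59 in mutant tissue against 10.32 in WT tissue. The calls of Cited2 and Higd1a were both lost without the brightness filter, without the intensity trend and with the mean of all probe sets. The genotype differences of Slc16a3 (-2.38 in culture) and Adm (-0.28 in culture) ran opposite to those of both mutant tissue arrays on the brightest probe set. Both genes lay under the brightness filter and so outside the main models; in the fit without the filter, the genotype difference in culture minus that in tissue was -2.71 for Slc16a3 (adjusted p = 0.19) and -0.46 for Adm (adjusted p = 0.69), and neither was called. The other Adm probe set gave -3.31 in culture, with mutant culture at the floor, and -0.05 and -0.08 for the mutant tissue arrays, all of 1 sign. Each of the 5 genes has 1 culture array per genotype. Ndufa4l2 passed the brightness filter only with its high mutant tissue arrays, so its call is not independent of that filter.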

How the results depend on the processing

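No paired analysis was possible because the labels give no pairing of arrays, and WT tissue, WT culture and mutant culture are 1 array each. Mutant against WT in tissue called 3 members higher and 1 lower; with the deposited scaling kept it called 6 and 3, with log2(signal + 16) in place of the floor 2 lower, with the mean of all probe sets 0 lower, and without the brightness filter or without the intensity trend 0 in either direction. Culture against tissue called 11 higher and 7 lower, and without the filter 4 and 4; leaving out a mutant tissue array in turn gave 7 to 11 higher (7 without replicate 1) and 5 lower either way. The genotype difference between preparations called 0 higher and 1 lower; it called 1 higher with the deposited scaling (Slc2a1, 0.55, adjusted p = 0.043), and 0 lower without the filter, without the trend and with the mean of probe sets. Of 26 members, 2 differed at least 2-fold between the cultures, and 1 with log2(signal + 16). The fit across both preparations called 0 members under each of the settings run for it. No difference of a called member changed sign. Ldha and Ndufa4l2 have 1 probe set each, so for them the mean of all probe sets changed only the other genes in the fit. Of 23 member calls, 8 were kept under every setting run. Leaving out a mutant tissue array leaves the tissue and interaction fits no residual degree of freedom, so these give values without a test. Over all tested genes the deposited scaling moved the median difference by at most -0.04. Signals near the background (under 27.8) limit Ndufa4l2, Ankrd37, Pfkp and the 3 dim members. WT tissue, WT culture and mutant culture are 1 array each and cannot be left out.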
